A study of Saccharomyces cerevisiae with 9 samples.

Results

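The 600 nucleotides at the 5′ end of 18S ribosomal RNA (rRNA) were followed at single-nucleotide resolution in 9 NET-seq libraries of the yeast Saccharomyces cerevisiae, made with RNA polymerase I (Pol I). NET-seq, native elongating transcript sequencing, reads the 3′ ends of the RNA that a polymerase holds. The 600 nucleotides were chosen by annotation and position alone, from the 6858 nt of the 35S rRNA gene. Positions are counted along that gene, so that the segment ends at position 1300 and the position minus 700 gives the nucleotide of 18S. In genome build R64 they lie on the minus strand at chrXII:466270-466869, inside the gene RDN18-2, an exonic rRNA sequence within the precursor gene RDN37-2. The genome carries the same gene in many tandem copies, so a read cannot be given to 1 copy. The groups were the wild-type strain (WT), a strain lacking RPA34 (rpa34Δ) and a strain lacking RPA49 (rpa49Δ), with 3 libraries each and no treatment in any of them. The labels give no other allele or strain background, and cultures of all 3 strains were grown in the same way.

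Each read marks the 3′ end of an RNA that came down with Pol I. The reads ending at a position, scaled to 1000000 for each library (RPM), are called occupancy here. Pol I makes a single long precursor in which 18S follows the 5′ external transcribed spacer (ETS 1). Rpa34 and Rpa49 form a dimer on the side of Pol I that resembles the Pol II factor TFIIF, and Rpa49 also carries a domain that reaches over the DNA cleft. The 5′ end of 18S is cut free of the spacer during early ribosome assembly and pairs with the U3 small nucleolar RNA, while the later nucleotides of the segment fold into the body of the small subunit and part of its decoding centre. Because the immunoprecipitate can also hold finished rRNA, the tests of positions and bins and the segment's share were computed on 2 scales, the reads of the whole gene and the reads of mature rRNA (18S, 5.8S and 25S) alone. Values in RPM are on the whole-gene scale. Mature rRNA held 90.4% ± 1.00 of the reads in WT, 94.2% ± 0.497 in rpa34Δ and 97.4% ± 0.224 in rpa49Δ (SD, n = 3), and the part of this difference in the results below was not tested.

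The 3 stretches of 50 nt below are printed as RNA from the deposited base column. They were chosen by rule, as the opening of the segment and its bins with the largest fall and the largest rise in rpa49Δ. The first opens 18S (chrXII:466820-466869, up to position 750), and its capitals mark the first 11 nt, where occupancy nearly vanished in rpa49Δ. The second held the largest fall of any 50 nt bin of the segment in rpa49Δ against WT (chrXII:466620-466669, positions 901 to 950), with the positions that fell in capitals. The last held the largest rise (chrXII:466420-466469, positions 1101 to 1150), with the positions that rose in capitals.
First 50 nt of 18S: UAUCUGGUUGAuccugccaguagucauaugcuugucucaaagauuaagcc
Positions 901 to 950: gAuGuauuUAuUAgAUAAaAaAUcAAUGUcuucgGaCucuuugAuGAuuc
Positions 1101 to 1150: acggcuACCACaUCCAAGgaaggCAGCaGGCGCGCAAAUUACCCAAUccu

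Single positions are shown with 10 nt on either side, with the nucleotide at the RNA 3′ end in capitals. The first set was chosen among positions with lower occupancy in rpa49Δ that lie before a U, while others before another base, such as 1063, 1160 and 925, fell too.
Position 702: uaagauaguuAucugguugau
Position 711: uaucugguugAuccugccagu
Position 845: acuacaugguAuaacuguggu
Position 851: ugguauaacuGugguaauucu
Position 1031: cgaugguaggAuaguggccua
Position 1223: ugaguacaauGuaaauaccuu
Position 1277: agcagccgcgGuaauuccagc
The next set rose in rpa49Δ, and its 3′ ends are C, A, U, U and C in the order shown.
Position 1082: gguucgauucCggagagggag
Position 1137: caggcgcgcaAauuacccaau
Position 1172: guagugacaaUaaauaacgau
Position 1202: auucgggucuUguaauuggaa
Position 1289: aauuccagcuCcaauagcgua

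The libraries held 4448067, 4857537 and 5353045 reads over the gene in WT, 2654736, 3575357 and 3367435 in rpa34Δ, and 1547073, 1568118 and 1242139 in rpa49Δ. Of these, the segment took 498466 to 616673 reads in WT, 299877 to 400407 in rpa34Δ and 138817 to 174533 in rpa49Δ, so 1 read was worth 0.187 to 0.805 RPM across libraries. The rpa49Δ libraries were the shallowest, and low positions are least precise there. Whether the libraries of a strain came from separate cultures is not stated in the labels. The p-values therefore reflect only how far these libraries lie from each other, and intervals on shares cover counting error only.

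The segment as a whole held nearly the same share of the gene in the 3 strains, while occupancy inside it moved toward its 3′ part in both deletions. Its share of the reads of the gene was 11.2%, 11.6% and 11.5% in the WT libraries, 11.3%, 11.2% and 11.1% in rpa34Δ, and 10.7%, 11.1% and 11.2% in rpa49Δ. The exact 95% interval of any 1 of these shares was narrow, from 11.18% to 11.24% in WT replicate 1 and from 10.64% to 10.74% in rpa49Δ replicate 1. The rpa34Δ libraries overlapped those of WT, with a difference of -0.255 percentage points (exact permutation p = 0.2, two-sided). In rpa49Δ the difference was -0.448 points, with every library below WT (exact permutation p = 0.1, which is the lowest that 3 libraries against 3 allow). As a share of mature rRNA the segment held 12.7% ± 0.301 in WT, 11.9% ± 0.137 in rpa34Δ and 11.3% ± 0.257 in rpa49Δ. On that scale the libraries of no pair of strains overlapped (exact permutation p = 0.1 for each pair). As a share of 18S, the segment held 35.9% ± 0.553 in WT, 34.8% ± 0.572 in rpa34Δ, which overlapped WT, and 33.0% ± 0.320 in rpa49Δ, which overlapped neither. No single-value comparison here could pass a threshold of 0.05, and after adjustment over 12 measures the lowest exact permutation p was 0.109 for rpa49Δ against WT and 0.15 in the other comparisons.

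Per nucleotide, occupancy of the segment was 191 ± 3.52 RPM in WT, 187 ± 1.84 in rpa34Δ and 183 ± 4.51 in rpa49Δ (n = 3). The remainder of 18S ran at 170.2 ± 1.10, 174 ± 2.77 and 186 ± 3.80 RPM per nt in the same order, and 25S at 164 ± 2.76, 173 ± 1.13 and 179 ± 0.946. In WT the segment was therefore the denser part, at 1.16 ± 0.0339 times the density of 25S. That ratio was 1.08 ± 0.0117 in rpa34Δ and 1.03 ± 0.0304 in rpa49Δ, with no overlap between any pair of strains (exact permutation p = 0.1 each). Just upstream, the last 350 nt of ETS 1 ran at 73.5 ± 10.1 RPM per nt in WT, 40.3 ± 3.69 in rpa34Δ and 16.1 ± 2.04 in rpa49Δ.

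The share of the segment's reads that ended in its first 300 nt, up to position 1000, was 43.1%, 41.4% and 41.0% in WT, 37.7%, 36.8% and 38.9% in rpa34Δ, and 36.1%, 33.7% and 33.4% in rpa49Δ. Every rpa34Δ library lay below every WT library, and every rpa49Δ library below every rpa34Δ library. The differences from WT were -4.01 points in rpa34Δ and -7.42 points in rpa49Δ, and the difference of rpa49Δ from rpa34Δ was -3.41 points (exact permutation p = 0.1 for each). The mean position of a read within the segment was 1026 ± 3.70 in WT, 1044 ± 3.90 in rpa34Δ and 1054 ± 5.19 in rpa49Δ. The deletions overlapped each other in this measure (exact permutation p = 0.2). Unevenness, as the Gini coefficient over the 600 positions, was 0.417 ± 0.0170 in WT, 0.427 ± 0.0133 in rpa34Δ and 0.456 ± 0.0104 in rpa49Δ, and rpa49Δ lay above both other strains without overlap (exact permutation p = 0.1 each).

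**Figure D1:**
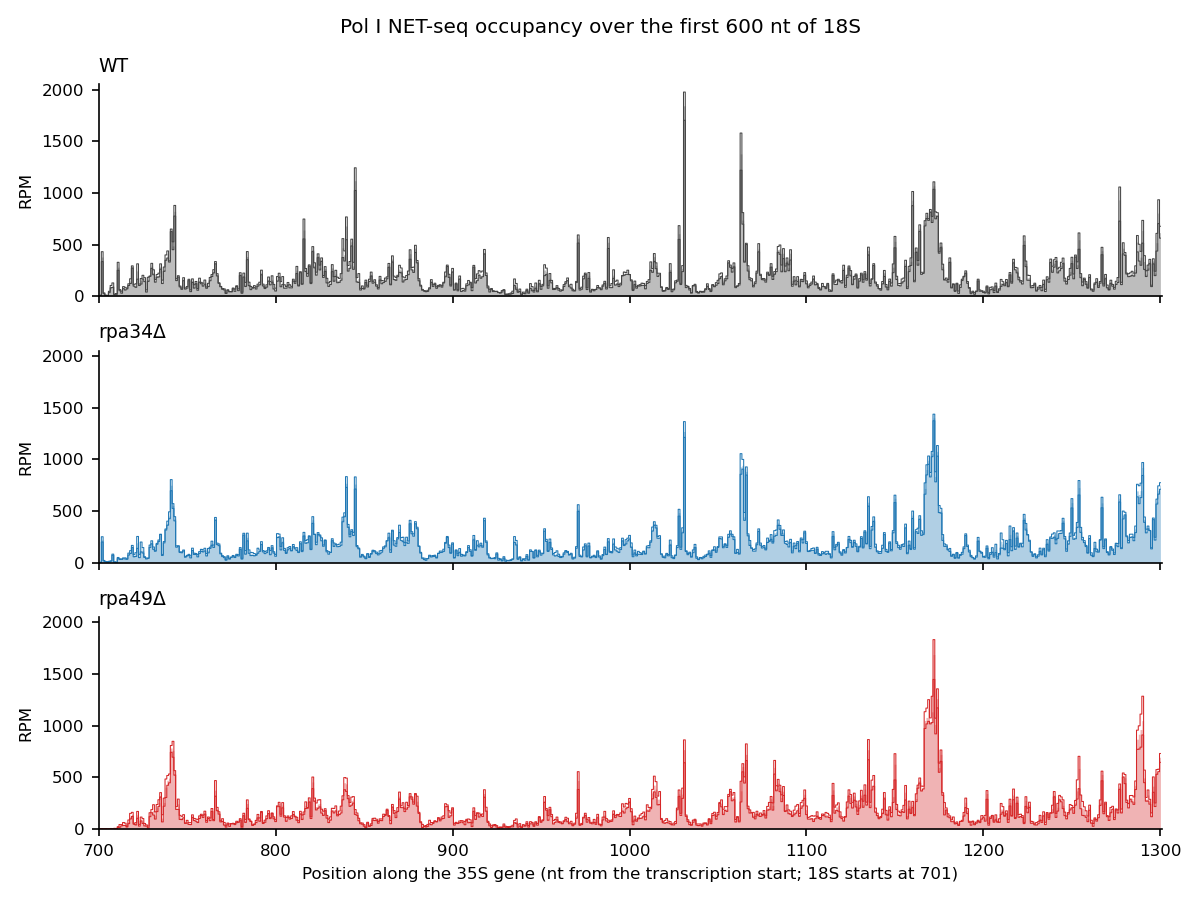
Mean occupancy of each strain in RPM (vertical axis, linear) at each of the 600 positions (horizontal axis, nt from the transcription start), 1 panel per strain, with thin lines at the lowest and highest library. The tallest WT position, 1031 at 1844 RPM, is lower in both deletions, and in the deletions the tallest is 1172, at 1403 RPM in rpa34Δ and 1689 RPM in rpa49Δ.

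All positions of the gene were tested together with limma on log2(RPM + 10), a scale on which the change of a low position is understated. Log2 changes below are on that scale. In rpa34Δ against WT, 598 of the 600 positions had a mean of at least 10 RPM and were tested. Of these, 126 rose and 151 fell, against 43.2% of all tested positions of the gene called in either direction, 19.8% higher and 23.4% lower. In rpa49Δ against WT, 140 of 597 rose and 185 fell, and the gene as a whole had 57.6% called, 27.1% higher and 30.5% lower. The falls include 709 and 710 in rpa34Δ, and 702, 703 and 706 to 710 in rpa49Δ, which reached the filter only through WT. The shares of the segment, 21.1% higher and 25.3% lower in rpa34Δ and 23.5% and 31.0% in rpa49Δ, were near those of the gene, spacers included. They differed from the other mature rRNA. In rpa34Δ the rest of 18S had 20.8% higher and 14.4% lower, and 25S had 22.7% and 13.0%. In rpa49Δ the rest of 18S had 36.7% higher and 17.1% lower, and 25S had 30.9% and 17.9%. On the mature rRNA scale 89 rose and 177 fell in rpa34Δ (15.9% and 18.5% over mature rRNA, 34.4% in either direction). In rpa49Δ 86 rose and 224 fell on that scale (21.5% and 23.9%, 45.4% in either direction). The falls were thus 29.6% and 37.5% of the tested positions of the segment on that scale. The median log2 change of the tested positions was -0.05 in rpa49Δ on the whole-gene scale, beside 0.01 over all tested positions of the gene, and -0.15 on the mature rRNA scale, beside 0.00.

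The direction of change followed the place in the segment. In the first 300 nt, 29 of 298 positions rose and 97 fell in rpa34Δ, with a median log2 change of -0.12. In rpa49Δ 18 of 297 rose and 132 fell there, with a median of -0.27. The falls of both strains there include the positions named above that reached the filter only through WT. In the remaining 300 nt the balance turned. Of 300 positions there, 97 rose and 54 fell in rpa34Δ, and 122 rose and 53 fell in rpa49Δ, with medians of 0.14 and 0.22. Over the gene 19.8% rose and 23.4% fell in rpa34Δ, and 27.1% and 30.5% in rpa49Δ. Rises also exceeded falls in the rest of 18S, at 20.8% and 14.4% in rpa34Δ and 36.7% and 17.1% in rpa49Δ. The same held in 25S, at 22.7% and 13.0% in rpa34Δ and 30.9% and 17.9% in rpa49Δ. On the mature rRNA scale the later positions were nearer to balance, with 72 rises and 61 falls in rpa34Δ and 78 rises and 67 falls in rpa49Δ. Over all mature rRNA 15.9% rose and 18.5% fell in rpa34Δ, and 21.5% and 23.9% in rpa49Δ.

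The 12 bins of 50 nt showed the same slope in sums of occupancy. In rpa34Δ 5 bins passed the test, 3 lower and 2 higher, beside 37.0% of the 138 bins of the gene (21.0% lower and 15.9% higher). In rpa49Δ 11 of 12 passed, 8 lower and 3 higher, beside 62.3% (31.9% lower and 30.4% higher). On the mature rRNA scale 5 fell and 0 rose in rpa34Δ (16.8% of 107 bins called, 9.35% lower and 7.48% higher), and the rises of the bin at 1101 (limma adjusted p = 0.277) and of the last bin (limma adjusted p = 0.144) missed the threshold. In rpa49Δ 9 fell and 1 rose on that scale (36.4% called, 24.3% lower and 12.1% higher). Leaving spacer reads out of the total lowers all bins of a deletion by nearly the same amount, so rises shrink and falls deepen alike. In rpa49Δ the bin at 1101 went from 0.45 to 0.34 and the bin at 901 from -0.47 to -0.58. The count for rpa34Δ also rested on single libraries, since 1 bin was called without rpa34Δ replicate 1 or 2, 2 without WT replicate 2, and 3 without WT replicate 1 or rpa34Δ replicate 3.

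The bin that opens 18S, up to position 750, summed to 9003, 9199.9 and 8965 RPM in WT, 7152, 6678 and 7092 in rpa34Δ, and 7549, 7155 and 7129 in rpa49Δ. All deletion libraries lay below all WT libraries. Its log2 change was -0.38 (SE 0.0465, limma adjusted p = 0.000123) in rpa34Δ and -0.32 (SE 0.0539, limma adjusted p = 0.00022) in rpa49Δ, and it held 33 and 30 positions that fell. The 33 include 709 and 710, and the 30 include 702, 703 and 706 to 710, which reached the filter only through WT. Over the gene 23.4% of tested positions fell in rpa34Δ and 30.5% in rpa49Δ. Without the first 11 nt, an alternative chosen after seeing the data, the log2 changes of the bin were -0.30 (limma adjusted p = 0.0011) and -0.16 (limma adjusted p = 0.0298). By the median position in place of the sum, they were -0.58 and -0.83 (limma adjusted p = 3.34e-05 and 4.17e-06). It was the only bin of the 5 called in rpa34Δ that stayed past the threshold under every alternative. The next bin, 751 to 800, changed by -0.13 in rpa34Δ (limma adjusted p = 0.237) and fell by 0.27 in rpa49Δ (limma adjusted p = 0.00706, or 0.0565 where the bin was given by its median position, not its sum).

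From 801 to 1000 the fall was deeper in rpa49Δ than in rpa34Δ in part of the bins. The bin 801 to 850 summed to 11487, 12814 and 12495 RPM in WT, 11008, 11039.7 and 10846 in rpa34Δ, and 9877, 8703 and 9169 in rpa49Δ, so that the 3 strains formed 3 separate steps. Its log2 change was -0.16 in rpa34Δ (limma adjusted p = 0.0303), -0.41 in rpa49Δ (limma adjusted p = 0.000118) and -0.25 between the deletions (limma adjusted p = 0.00319). The bin 851 to 900 had the same order, at -0.16 and -0.32 against WT (limma adjusted p = 0.0188 and 0.000255) and -0.16 between the deletions (limma adjusted p = 0.0217). The rpa34Δ calls of both bins were lost without single libraries, among them WT replicate 2 (limma adjusted p = 0.111 and 0.0772) and rpa34Δ replicate 2 (limma adjusted p = 0.0685 and 0.086). The call between the deletions at 851 was lost without rpa34Δ replicate 1 (limma adjusted p = 0.115) or 3 (limma adjusted p = 0.0642). Given by its median position, that difference was 0.00065 (limma adjusted p = 0.992). The bin 951 to 1000 fell by 0.25 in rpa49Δ (limma adjusted p = 0.00478), while its change of -0.13 in rpa34Δ missed the threshold (limma adjusted p = 0.106).

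The largest fall of a bin in rpa49Δ was at 901 to 950, the A- and U-rich stretch printed above. Its sums were 5325, 4448 and 4435 RPM in WT, 4549.6, 4681 and 4688 in rpa34Δ, and 3398, 3588 and 3236 in rpa49Δ. The rpa34Δ libraries fell within the WT range and all 3 rpa49Δ libraries lay below it. The log2 change was -0.47 in rpa49Δ (SE 0.0946, limma adjusted p = 0.000825) and -0.02 in rpa34Δ (limma adjusted p = 0.819), and the difference between the deletions was -0.45 (limma adjusted p = 0.000247). In rpa49Δ 23 of its positions fell and 0 rose. In rpa34Δ it was mixed, with 7 rises and 9 falls. Given by its median position, the change of this bin in rpa49Δ was -0.16 (limma adjusted p = 0.195).

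The largest rise of a bin was at 1101 to 1150. It summed to 7662, 8008 and 8135 RPM in WT, 8909, 8616 and 8544 in rpa34Δ, and 9673, 11395 and 11535 in rpa49Δ, again in 3 separate steps. The log2 change was 0.45 in rpa49Δ (SE 0.0694, limma adjusted p = 9.13e-05), 0.13 in rpa34Δ (limma adjusted p = 0.0426) and 0.32 between the deletions (limma adjusted p = 0.00275). In rpa49Δ 34 of its positions rose and 3 fell, beside 27.1% higher and 30.5% lower over the tested positions of the gene. These counts are a description, since the bin was chosen for its rise. On the mature rRNA scale the bin was higher by 0.34 in rpa49Δ (limma adjusted p = 0.00312). It was the only bin of the segment that rose on both scales against WT. In rpa34Δ the call was lost without any 1 of 5 libraries, with limma adjusted p up to 0.221.

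The other bins past position 1000 changed less evenly. The bin 1051 to 1100 changed by -0.06 in rpa34Δ and -0.08 in rpa49Δ (limma adjusted p = 0.418 and 0.257), and was the bin not called in rpa49Δ on the whole-gene scale. The bin 1151 to 1200 rose by 0.23 in rpa49Δ (limma adjusted p = 0.0134), but the change was 0.12 on the mature rRNA scale (limma adjusted p = 0.177), 0.19 without rpa49Δ replicate 2 (limma adjusted p = 0.0917) and 0.01 with its median position (limma adjusted p = 0.846). The bin 1201 to 1250 summed to 9045, 9000.0 and 8083 RPM in WT, 9272, 8906 and 9568 in rpa34Δ, and 7341, 8090.0 and 7547 in rpa49Δ, and the lowest WT library overlapped rpa49Δ. It fell by 0.18 in rpa49Δ against WT (limma adjusted p = 0.0242) and by 0.27 against rpa34Δ (limma adjusted p = 0.00147), and the call against WT was lost without any 1 of 4 libraries (limma adjusted p up to 0.0907). The last bin, which ends at 1300, rose by 0.23 in rpa34Δ and 0.27 in rpa49Δ (limma adjusted p = 0.0339 and 0.0126). The lowest WT library of that bin, at 11932 RPM beside 14324 and 14424, moved both calls. Without it the change was 0.14 in rpa34Δ (limma adjusted p = 0.0941) and 0.19 in rpa49Δ (limma adjusted p = 0.0654), and both calls were also lost without single deletion libraries (limma adjusted p up to 0.0949 and 0.0672). The bin 1001 to 1050 fell by 0.19 in rpa49Δ (limma adjusted p = 0.0243), and without its single highest position, 1031, the change was 0.01 (limma adjusted p = 0.885). That call was also lost without any 1 of 4 libraries (limma adjusted p up to 0.0884).

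**Figure D2:**
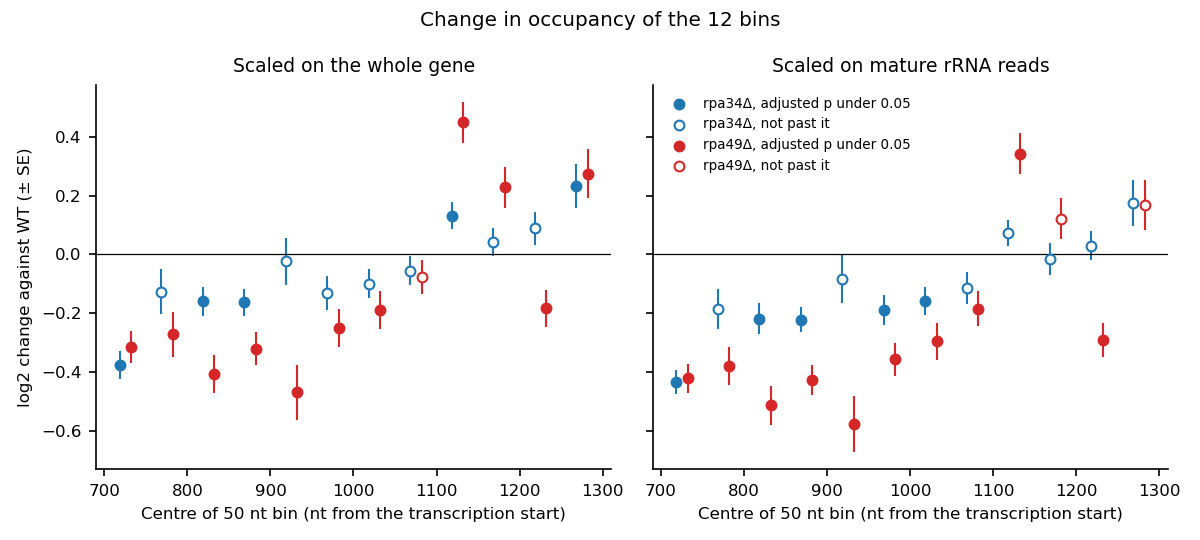
Log2 change against WT with its SE (vertical axis) of the 12 bins of 50 nt (horizontal axis, centre of each bin) in rpa34Δ and rpa49Δ. The left panel is on the whole-gene scale and the right panel on the mature rRNA scale. Filled points had limma adjusted p under 0.05 and open points did not. On the whole-gene scale the lowest rpa49Δ point is the bin at 901, at -0.47, and the highest is the bin at 1101, at 0.45.

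The first 11 nt of 18S, a stretch chosen after its values were seen and therefore described without a test, stood apart from what follows. Together they held 916, 939 and 1157 RPM in WT, 400.0, 467 and 418 in rpa34Δ, and 50.4, 44.0 and 49.1 in rpa49Δ. The rpa49Δ sums rest on 78, 69 and 61 reads, and their mean was 21.0-fold below that of WT. The 11 nt just upstream, the end of ETS 1, held 269.7 ± 45.1 RPM in WT, 139 ± 18.9 in rpa34Δ and 32.9 ± 8.10 in rpa49Δ. The next 11 nt of 18S, 712 to 722, held 1342 ± 166, 874 ± 117 and 761 ± 94.0 RPM. The rpa49Δ mean was thus 8.19-fold below WT in the last 11 nt of the spacer, 21.0-fold below in the first 11 nt of 18S and 1.76-fold below in the 11 nt after them.

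Within these nucleotides, 702 was the highest position in WT, at 336, 374 and 432 RPM. It read 212, 251 and 200.2 RPM in rpa34Δ and 5.17, 1.28 and 3.22 in rpa49Δ, so the 3 strains were separate. The log2 change was -0.76 in rpa34Δ (SE 0.104, limma adjusted p = 7.19e-05). In rpa49Δ its value of -4.89 is a description, since the position reached the filter of 10 RPM only through WT. Position 711 read 267, 252 and 329.5 RPM in WT, 39.6, 49.5 and 50.8 in rpa34Δ, and 17.5, 23.6 and 15.3 in rpa49Δ. It fell by 2.37 in rpa34Δ (SE 0.115, limma adjusted p = 3.36e-09), the largest fall of the segment in that strain, and by 3.35 in rpa49Δ (limma adjusted p = 3.19e-13). Among the 11 nt, 711 was the only position with an rpa49Δ mean above 10 RPM. Position 708 differed from 711 in rpa34Δ, with 86.8, 97.4 and 130.0 RPM in WT and 71.9, 80.8 and 83.1 in rpa34Δ, but 3.23, 1.91 and 3.22 in rpa49Δ. It changed by -0.36 in rpa34Δ (limma adjusted p = 0.0376), a call lost without WT replicate 2 or 3 or rpa34Δ replicate 1 (limma adjusted p up to 0.169). In rpa49Δ its value of -3.15 is likewise a description. Of the 11 positions, 8 reached the filter for rpa49Δ against WT, 7 of them only through their WT values and 711 also in rpa49Δ. The first nucleotide, 704 and 705 were not tested there.

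**Figure D3:**
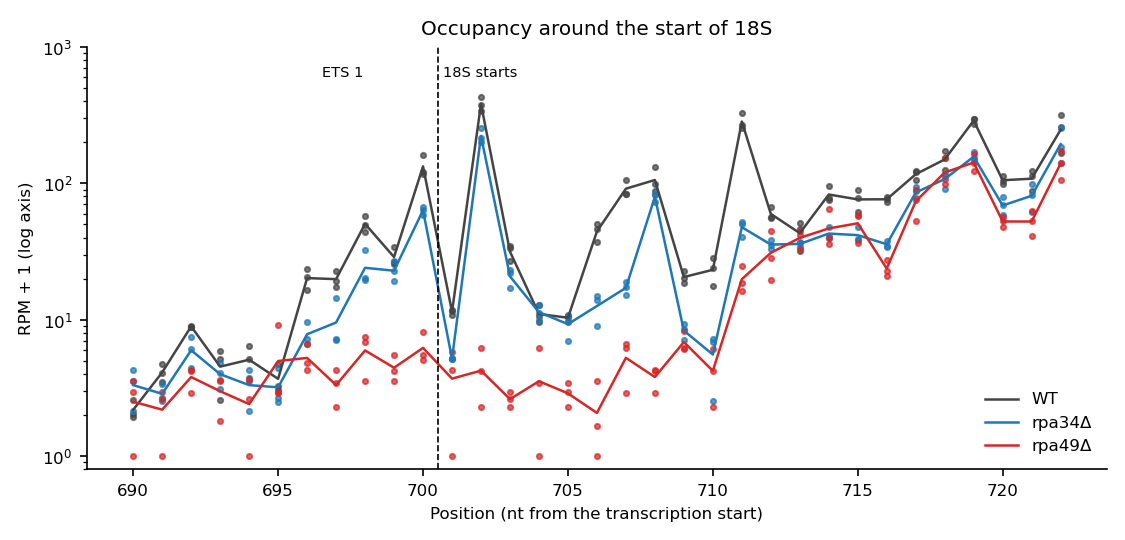
Occupancy as RPM + 1 (vertical axis, log scale) at single positions from 690 to 722 (horizontal axis), with points for the libraries and lines for the strain means; a point at 1 is a library with 0 reads. Around the dashed line between ETS 1 and 18S the rpa49Δ libraries sit near the floor up to position 710 and join the rpa34Δ libraries from 712 on.

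The 10 positions with the highest WT mean were chosen on WT values that also enter the comparisons with WT, so their counts are a description. In rpa34Δ 6 fell, 1 rose and 3 were not called, beside 23.4% lower over the gene. In rpa49Δ 7 fell and 3 rose, beside 30.5% lower. Position 1031 led in WT with 1851, 1704 and 1977 RPM. It read 1232, 1365 and 1213 RPM in rpa34Δ and 642, 802 and 863 in rpa49Δ, 3 separate steps, with log2 changes of -0.53 (limma adjusted p = 0.00193) and -1.26 (limma adjusted p = 2.46e-07). Position 1063, a G before another G, read 1335, 1221 and 1580.2 RPM in WT, 871, 1055 and 856 in rpa34Δ, and 262, 386 and 463 in rpa49Δ. It fell by 0.57 (limma adjusted p = 0.00229) and by 1.90 (limma adjusted p = 7.49e-09).

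Position 845 had a contrast between the deletions that was among the largest of the segment. It read 1024, 1089 and 1244 RPM in WT, 739, 830.1 and 713 in rpa34Δ, and 189, 142 and 183 in rpa49Δ. The log2 change was -0.55 in rpa34Δ (limma adjusted p = 0.000893) and -2.64 in rpa49Δ (limma adjusted p = 9.38e-13), and -2.10 between the deletions (limma adjusted p = 2.01e-09). Position 1160 stepped down from strain to strain, with 901, 877 and 1015 RPM in WT, 428, 499.8 and 455 in rpa34Δ, and 207, 229 and 268 in rpa49Δ. The mean was 2.02-fold below WT in rpa34Δ and 3.97-fold below in rpa49Δ (limma adjusted p = 1.76e-06 and 4.42e-11).

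Position 743 ran the other way between the deletions. It read 777, 812 and 879.9 RPM in WT, 429.8, 446 and 405 in rpa34Δ, and 566, 528 and 522 in rpa49Δ, so that rpa34Δ was lowest. It fell by 0.93 in rpa34Δ (limma adjusted p = 1.52e-06) and by 0.60 in rpa49Δ (limma adjusted p = 0.000134), and rpa49Δ was higher than rpa34Δ by 0.33 (limma adjusted p = 0.0124, and 0.0657 without rpa34Δ replicate 3 or 0.0608 without replicate 1). Position 1277, in the conserved loop of the decoding centre, read 728, 1058 and 1014 RPM in WT, 626, 657 and 588 in rpa34Δ, and 385, 407 and 436 in rpa49Δ. It fell by 0.56 in rpa34Δ (limma adjusted p = 0.00316) and by 1.15 in rpa49Δ (limma adjusted p = 5.70e-07). Position 1299, next to the end of the segment, fell by 0.49 in rpa49Δ (limma adjusted p = 0.00206), and its change of -0.20 in rpa34Δ missed the threshold (limma adjusted p = 0.156).

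The 3 high positions that rose, 1170, 1172 and 1173, lie within 4 nt of each other. Position 1172 read 1066, 1036 and 1108 RPM in WT, 1437, 1397 and 1374 in rpa34Δ, and 1448, 1786 and 1833 in rpa49Δ, and all deletion libraries lay above WT. It rose by 0.39 in rpa34Δ (limma adjusted p = 0.00591) and by 0.65 in rpa49Δ (limma adjusted p = 0.00046), and became the highest position of the segment in both. Positions 1170 and 1173 rose by 0.32 and 0.34 in rpa49Δ (limma adjusted p = 0.022 and 0.0188), but the changes on the mature rRNA scale were 0.22 and 0.24 (limma adjusted p = 0.12 and 0.102). Both calls were also lost without single libraries, such as rpa49Δ replicate 2 (limma adjusted p = 0.0828 and 0.0718). The 7 nt around them, 1168 to 1174, were chosen after their values were seen and summed to 5759 ± 48.0 RPM in WT, 7119 ± 269 in rpa34Δ and 8392 ± 653 in rpa49Δ (n = 3). Of the 10 highest positions, WT shared 3 with rpa34Δ and 3 with rpa49Δ, and the deletions shared 6. Of the 30 highest, WT shared 21 with rpa34Δ and 18 with rpa49Δ, and the deletions shared 25.

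**Figure D4:**
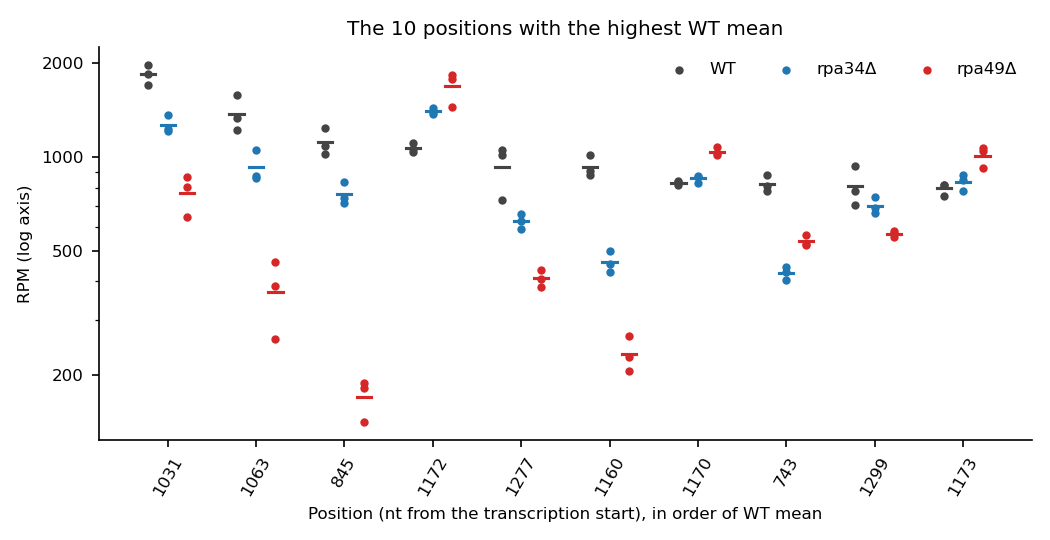
Occupancy in RPM (vertical axis, log scale) of the 10 positions with the highest WT mean, in falling order of that mean (horizontal axis). Points are single libraries and horizontal marks the strain means; 1031, 1063, 845, 1160 and 1277 step down from WT to rpa34Δ to rpa49Δ, and 1172 is above WT in all 6 deletion libraries.

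Beside 711, the largest falls in rpa34Δ were at 707, 728, 851, 1181 and 726, with log2 changes of -1.94, -1.68, -1.60, -1.41 and -1.35 (limma adjusted p from 3.54e-08 to 3.81e-07). All 6 are an A or G with a U after it, as are 91 of the 600 positions of the segment. Position 707 read 82.3, 83.0 and 106 RPM in WT and 16.2, 14.3 and 17.8 in rpa34Δ. Position 851 read 134, 146 and 157 RPM in WT, 43.3, 42.2 and 38.6 in rpa34Δ, and 12.9, 12.1 and 16.9 in rpa49Δ. It was thus low in both deletions and lowest in rpa49Δ, where its mean was 10.4-fold below WT (limma adjusted p = 4.34e-12). Position 1181 fell by 1.41 in rpa34Δ and by 1.45 in rpa49Δ, and the deletions overlapped, with 108 to 138 RPM in rpa34Δ and 109 to 128 in rpa49Δ against 329 to 372 in WT.

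The largest rises in rpa34Δ were smaller than the falls. Position 1137 rose most, from 169, 167 and 166 RPM in WT to 347, 315 and 350.4 in rpa34Δ, a rise of 0.97 (SE 0.0766, limma adjusted p = 3.50e-07). It reached 378, 474 and 419 RPM in rpa49Δ, a rise of 1.29 (limma adjusted p = 6.14e-09). Positions 936, 1289, 1198, 1256 and 1193 rose by 0.95, 0.87, 0.87, 0.84 and 0.83 in rpa34Δ (limma adjusted p from 1.51e-05 to 0.000294). Position 1198 was higher in rpa34Δ than in both other strains, with 112, 112 and 107 RPM against 49.7, 62.0 and 56.2 in WT, and rpa49Δ was lower than rpa34Δ there by 0.65 (limma adjusted p = 0.000295), at 67.2, 69.5 and 62.8 RPM.

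In rpa49Δ the most negative log2 values after 702, 711 and 708 were at 1223, 707 and 851, and 702, 708 and 707 had reached the filter only through WT. Position 1223 read 545, 493 and 585 RPM in WT, 430.2, 468 and 409.8 in rpa34Δ, and 64.6, 62.5 and 53.1 in rpa49Δ. The rpa34Δ libraries lay a little below WT and the rpa49Δ libraries far below both. The log2 change was -0.30 in rpa34Δ (limma adjusted p = 0.0145, and 0.0557 without WT replicate 3), -2.98 in rpa49Δ (SE 0.112, limma adjusted p = 6.23e-14) and -2.67 between the deletions (limma adjusted p = 7.08e-11). Leaving out 702, 708 and 707, the positions 711, 1223 and 851 are each an A or G before a U. Of the 600 positions of the segment, 91 are of this kind.

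The largest rise in rpa49Δ was at 1202, which read 95.8, 90.8 and 101 RPM in WT, 141, 156 and 162 in rpa34Δ, and 372, 372 and 288 in rpa49Δ. It rose by 1.74 in rpa49Δ (SE 0.117, limma adjusted p = 2.63e-10) and by 0.62 in rpa34Δ (limma adjusted p = 0.000106). The neighbouring 1200 and 1201 rose by 1.26 and 1.37 in rpa49Δ (limma adjusted p = 1.45e-07 and 8.71e-07). Position 1082 read 239.9, 233 and 214 RPM in WT, 310.4, 302 and 257 in rpa34Δ, and 664, 595 and 532 in rpa49Δ. It rose by 1.34 in rpa49Δ (limma adjusted p = 4.65e-09) and by 0.32 in rpa34Δ (limma adjusted p = 0.0101, and 0.0677 without rpa34Δ replicate 1). Position 1289 read 301, 402 and 435 RPM in WT, 693, 769.7 and 630.2 in rpa34Δ, and 985, 793 and 1113 in rpa49Δ, a rise of 1.32 in rpa49Δ (limma adjusted p = 2.39e-07).

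Set directly against each other, the deletions differed at 69 positions higher and 109 lower in rpa49Δ than in rpa34Δ, of 594 tested. Over the gene 30.4% of tested positions were called in this comparison, 10.9% higher and 19.5% lower, near the segment's own 11.6% and 18.4%. The rest of 18S had 16.3% higher and 10.6% lower, and 25S had 10.9% and 9.34%. On the mature rRNA scale 50 were higher and 118 lower, beside 19.1% called, 7.63% higher and 11.5% lower. In the first 300 nt the calls were 10 higher and 66 lower of 294, and in the remaining 300 nt they were 59 higher and 43 lower. The 66 include 702, 703, 707 and 708, which reached the filter only through rpa34Δ. Among the 12 bins, 1 was higher and 4 lower, beside 38.4% of all bins (10.1% higher and 28.3% lower). On the mature rRNA scale 1 was higher and 5 lower, beside 21.5% (7.48% higher and 14.0% lower). The log2 differences furthest toward lower occupancy in rpa49Δ were -4.13 at 702 and -2.79 at 708, given as a description because both reached the filter only through rpa34Δ. They were followed by 1223, 845, 1023 and 925, with log2 values of -2.67, -2.10, -1.53 and -1.46. Toward higher occupancy they were at 1202, 1082, 1200, 1201, 1136 and 1273, with values of 1.11, 1.02, 0.95, 0.75, 0.69 and 0.68 (limma adjusted p of 0.00238 or less for these 10 positions).

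Positions 925 and 936 lie in the bin with the largest fall and rose in rpa34Δ. Position 925 read 47.3 to 49.2 RPM in the WT libraries, 93.0, 95.1 and 84.3 in rpa34Δ, and 29.1, 33.2 and 19.3 in rpa49Δ. It rose by 0.78 in rpa34Δ (limma adjusted p = 2.93e-05) and fell by 0.67 in rpa49Δ (limma adjusted p = 0.00117). Position 936 read 125, 68.6 and 94.5 RPM in WT and 172, 216 and 184 in rpa34Δ, and its change of -0.32 in rpa49Δ missed the threshold (limma adjusted p = 0.153).

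The base at the RNA 3′ end shifted with the strain. The segment holds 177 A, 115 C, 137 G and 171 U. Reads ending at A made up 38.8%, 38.2% and 39.1% of the segment in WT, 37.2%, 37.3% and 37.0% in rpa34Δ, and 34.5%, 35.5% and 34.5% in rpa49Δ. Reads ending at C moved the other way, with 15.6%, 16.5% and 16.1% in WT, 17.8% ± 0.229 in rpa34Δ, and 19.7%, 19.5% and 21.5% in rpa49Δ. For both bases the 3 strains were separate (exact permutation p = 0.1 for each pair). G fell from 22.2% ± 0.133 in WT to 20.3% ± 0.438 and 19.8% ± 0.391, and U was 23.1% ± 0.290, 24.7% ± 0.384 and 25.1% ± 0.497, with the deletions overlapping each other (exact permutation p = 0.2).

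The base that follows the 3′ end, which is the next to be added, was examined after the falls before U had been seen. For the segment it is described without a test. Reads ending before U made up 29.0%, 28.5% and 29.9% of the segment in WT, 25.9%, 26.3% and 26.3% in rpa34Δ, and 23.2%, 23.0% and 23.0% in rpa49Δ. Reads ending before A were 34.4% ± 0.574 in WT, 37.6% ± 0.463 in rpa34Δ and 40.7% ± 0.460 in rpa49Δ. In the mature rRNA outside the segment, which did not serve to choose the measure, the share before U was 26.3% ± 0.182, 25.4% ± 0.0314 and 24.7% ± 0.0549, again without overlap (exact permutation p = 0.1 for each pair). The differences from WT before U there were -0.917 and -1.61 points. The share before A there was 30.1% ± 0.258 in WT, 31.3% ± 0.251 in rpa34Δ and 31.8% ± 0.561 in rpa49Δ. The deletions overlapped each other in that share (exact permutation p = 0.3).

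At the 91 tested positions of the segment with an A or G before a U, occupancy was 247 ± 9.73 RPM per nt in WT, 207 ± 3.79 in rpa34Δ and 165 ± 5.18 in rpa49Δ. At all other positions of the segment it was 181 ± 3.83, 183 ± 2.04 and 187 ± 4.48 RPM per nt. This kind of position was chosen after the falls had been seen, so its values in the segment are a description. In rpa49Δ 52 of the 91 fell and 16 rose, whereas 133 of the 506 others fell and 124 rose. The 52 include 702 and 707, and the 133 include 703, 706, 708, 709 and 710, which reached the filter only through WT. Over all tested positions of the gene, 30.5% fell and 27.1% rose in rpa49Δ. In the mature rRNA outside the segment, 200 of 601 positions of this kind fell and 111 rose in rpa49Δ, and 639 of 4122 others fell and 1421 rose. In rpa34Δ 36 of the 91 fell and 20 rose, beside 115 and 106 of the 507 others, and 23.4% lower and 19.8% higher over the gene. The base that precedes the one at the 3′ end, also a description, went with direction too. After an A 68 of 177 rose and 17 fell in rpa34Δ, and 56 rose and 39 fell in rpa49Δ. After a G, in the same order, 28 of 137 rose and 56 fell, and 31 rose and 63 fell. After a U 12 of 170 rose and 51 fell, and 22 of 169 rose and 56 fell. After a C 18 of 114 rose and 27 fell, and 31 rose and 27 fell. The falls include 709 and 710 in rpa34Δ, and 702, 703 and 706 to 710 in rpa49Δ, past the filter only through WT. These counts are on the whole-gene scale. Position 1063, a G before a G, is among the positions outside this kind that fell.

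**Figure D5:**
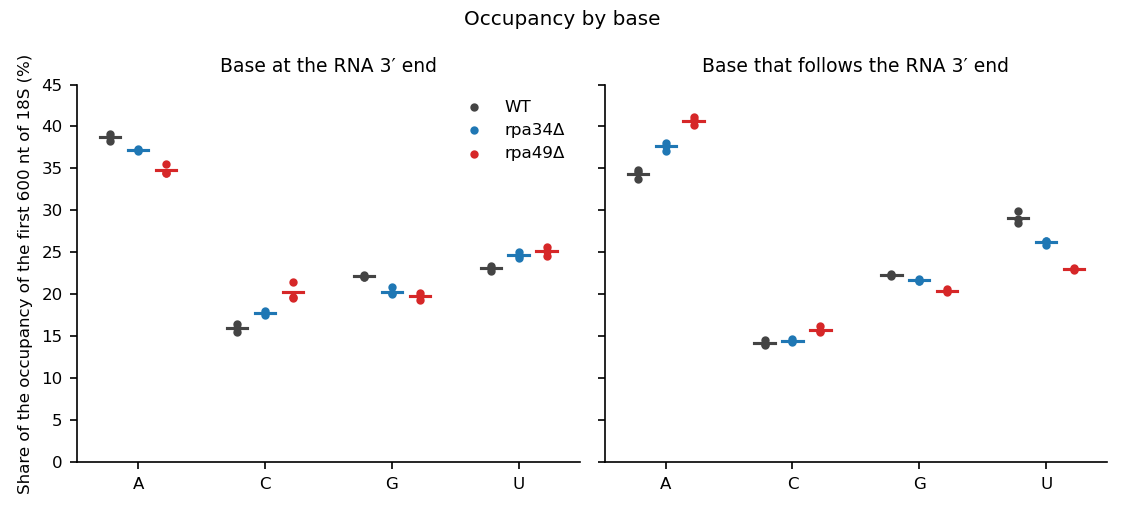
Share of the segment's reads in percent (vertical axis, from 0) by the base at the RNA 3′ end and by the base that follows it (horizontal axis, A, C, G and U), with points for libraries and horizontal marks for strain means. Ends at A and ends before U step down from WT to rpa34Δ to rpa49Δ, ends before U from 29.1% to 26.2% to 23.1%, and ends at C and before A step up.

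As a description of the whole profile, log2 occupancy over the 600 positions correlated at r = 0.978 to 0.988 between WT libraries, 0.984 to 0.992 between rpa34Δ libraries and 0.972 to 0.976 between rpa49Δ libraries. Positions share their library and sequence and are not independent. Between strains r was 0.902 to 0.921 for WT with rpa34Δ, 0.904 to 0.925 for rpa34Δ with rpa49Δ, and 0.796 to 0.829 for WT with rpa49Δ. Position means ran from 9.31 RPM (705) to 1844 RPM (1031) in WT with a median of 139, from 4.17 RPM (the first nucleotide) to 1403 RPM (1172) in rpa34Δ with a median of 137, and from 1.07 RPM (706) to 1689 RPM (1172) in rpa49Δ with a median of 132. Means under 10 RPM were found at 2 positions in WT, 4 in rpa34Δ and 10 in rpa49Δ.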

How the data were processed

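The deposited replicate columns hold reads per 1000000 (RPM), which the authors scaled over the gene up to its terminator T1. Tools named in the submitters' processing notes were STAR 2.7.1a with build R64, cutadapt 3.4, bedtools 2.28.0, SAMtools 1.6, bcl2fastq 2.20.00 and R 4.0.2. How molecular identifiers, and reads matching several gene copies, were handled was not given in the sources. The WT columns are the same in both tables, and the authors' ratio and p-value columns were not used. Of 61722 values, all but 10 were whole multiples of 1 read within 0.01 read.

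Each library was rescaled to the whole gene, or to mature rRNA alone. Positions averaging 10 RPM or more, and bins of 50 nt, entered limma 3.58.1 (R 4.3.3, eBayes with trend) as log2(RPM + 10), with the compared groups alone, Benjamini-Hochberg adjustment over the gene and a threshold of 0.05. The test was checked on simulated data. Measures with 1 value per library had two-sided exact permutation tests (10 splits). Intervals are Clopper-Pearson. Alternatives were edgeR 4.0.16 (quasi-likelihood) on the recovered reads, other pseudocounts, filters, scales and bin sizes, a replicate block, and leaving out each library.

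Named items were all 12 bins, the 10 positions with the highest WT mean, and for each comparison the 6 largest rises and falls past the threshold without overlap. Members, lists and tests were chosen with earlier results of these data known. Python 3.11.15, numpy 2.4.6, pandas 2.3.3, scipy 1.17.1 and matplotlib 3.10.9 were used.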

Additional observations from a re-analysis of the deposited data

How the results depend on the processing

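The counts of positions called stayed within 1.5 times those reported in all 48 combinations of comparison and alternative, among them edgeR's quasi-likelihood test on the recovered reads, and with single libraries left out they ran from 190 to 264 in rpa34Δ, 273 to 337 in rpa49Δ and 120 to 183 between the deletions. Counts of bins called were less stable, mainly in rpa34Δ, and the cause was not tested. In rpa34Δ the 5 bins became 3 with the median position of each bin, 3 with a replicate block, 2 with limma without trend and 3 with bins of 100 nt, and 1 to 4 with a library left out. In rpa49Δ the 11 became 6 with the median position, 18 of 24 with bins of 25 nt and 5 of 6 with bins of 100 nt, and 9 to 10 with a library left out. Between the deletions the 5 became 13 with bins of 25 nt, 3 with bins of 100 nt and 4 to 6 with a library left out. Leaving out the first 11 nt of 18S, an alternative chosen after seeing the data, gave counts of 5, 11 and 5, and moved the opening bin from -0.32 to -0.16 in rpa49Δ and from 0.06 to 0.14 between the deletions. On mature rRNA reads the difference in the segment's share was -0.775 points in rpa34Δ, -1.37 in rpa49Δ and -0.590 between the deletions. Without position 1031 the share of the highest 6 positions differed by 0.203 and 1.26 points from WT in rpa34Δ and rpa49Δ, and the share at A by -3.32 in rpa49Δ. Of the called bins, bin 1001 in rpa49Δ and bin 851 between the deletions changed sign, from -0.19 and -0.16 to values near 0 given below. With the median position the log2 changes were 0.13 at bin 901 and -0.0097 at bin 1151 in rpa34Δ, and -0.26 at the opening bin (limma adjusted p = 0.0201), 0.00065 at bin 851, 0.030 at bin 1001 and 0.015 at bin 1051 between the deletions. Without position 1031, bin 1001 changed by 0.0038 in rpa34Δ, 0.013 in rpa49Δ and 0.0096 between the deletions. On mature rRNA reads bin 1151 changed by -0.017 and position 1170 by -0.013 in rpa34Δ, and the last bin by -0.0056 between the deletions. With a library left out, bin 901 ran from -0.069 to 0.063 in rpa34Δ, and between the deletions bin 1051 ran from -0.047 to 0.0052, the last bin from -0.0048 to 0.082, position 1181 from -0.12 to 0.047 and position 1256 from -0.46 to 0.022. Of the named bins called, 1 of 5, 5 of 11 and 3 of 5 stayed past the threshold in the same direction under every alternative. Of the named positions called, 23 of 29, 27 of 31 and 22 of 27 did so. Both are in the order rpa34Δ, rpa49Δ and rpa49Δ against rpa34Δ. The 27 include 702, 707 and 708, which reached the filter only through WT. The 22 include the same positions, which reached it there only through rpa34Δ. Apart from the 10 highest in WT, named positions were chosen for large changes in these libraries, so these counts are a description. No sign was seen that the replicate numbers pair the libraries, though so few libraries cannot settle it. Deviations from the strain means correlated at a median of -0.0374 between libraries with the same number (9 pairs), from -0.285 to 0.253. Between libraries with other numbers the median was 0.00102 (18 pairs), from -0.306 to 0.422. With the replicate number as a block 236, 315 and 186 positions were called. Depth limits positions under 10 RPM in rpa49Δ, where 1 read was worth up to 0.805 RPM.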
